A study of Mus musculus with 7 samples.

Results

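The binding of Zfp281, a zinc finger transcription factor, was set against that of Suz12, a subunit of Polycomb repressive complex 2 (PRC2), in mouse embryonic stem cells (ESCs). The members are all peaks on chromosomes 1 to 19 and X of the ESC Zfp281 list (52266 peaks) and of the ESC Suz12 list (8184 peaks), 60450 of the 63934 peaks in the 5 peak lists of the series. Both lists were made by ChIP-seq, the sequencing of DNA recovered with an antibody against a bound protein, in ESCs of strain 129S1, untreated, of no stated genotype, and grown without feeder cells in medium with serum and leukemia inhibitory factor. Each antibody was used on 1 library, so there is no spread between replicates and no test. Unless stated otherwise, differences are given with 95% intervals that cover counting error only (exact Poisson intervals of counts, Wilson intervals of shares). Neighbouring peaks are not independent of one another. The other samples of the series, from extraembryonic endoderm stem cells and the inputs, enter no comparison here.

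PRC2 places methyl groups on lysine 27 of histone H3, and Suz12 is needed for the complex to be stable and active. In ESCs the complex sits mainly at CpG-rich start regions of genes that direct development, which are kept low until the cells differentiate, and at the Hox gene clusters it covers long unbroken stretches. Zfp281 binds G-rich DNA through its zinc fingers and belongs to the network of transcription factors that regulates the pluripotent state and the exit from it.

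The summit of a Zfp281 peak, the position that the authors' peak caller gave as its highest point, was taken as the site of binding. Suz12 peaks no more than 1 kb apart were joined into 1 domain, which gave 5757 Suz12 domains, the median one 1383 bp and the widest 90894 bp long. Together they covered 13.9 Mb, or 0.543% of the chromosome length spanned by the lists. Of the domains, 3814 consisted of 1 Suz12 peak and 1943 of 2 or more. The median Zfp281 peak was 594 bp wide and the median Suz12 peak 958 bp. By the peak statistics, the median summit rested on 25 tags in the Zfp281 list, above a background of 3.01 tags. In the Suz12 list it rested on 42 tags, each counted as 0.590 in the statistics, above a background of 2.82 on that scale.

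Zfp281 summits were dense inside Suz12 domains. Of the 52266 summits, 3201 lay inside a domain, or 6.12% (5.92 to 6.33%), at 0.230 summits per kb (0.222 to 0.238). Over all chromosome length there were 0.0204 summits per kb, or 1 in 49.1 kb, so the density inside was 11.3 times the overall one (10.9 to 11.7). The overall density takes in all sequence between the outermost peaks of each chromosome. Start regions and CpG-rich regions without Suz12 were not set beside the domains. The ratio therefore does not show a link particular to Suz12. Of the 5757 domains, 2080 held at least 1 summit, or 36.1% (34.9 to 37.4%). A single summit was found in 1517 of these domains, 2 or more in 563 and 5 or more in 71. The 71 domains with 5 or more held 496 summits, or 15.5% of all summits inside domains. Neighbouring summits within 1 domain were a median of 2095 bp apart (quartiles 1315 and 3582 bp).

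The share of domains with Zfp281 rose with their width, and the density of summits was lowest in the narrowest domains. A rise of the share with width arises at any constant density, because a longer domain has more room for a summit. The share expected from length alone was not computed. Of 2300 domains under 1 kb, 9.74% (8.59 to 11.02%) held a summit. The share was 30.0% (27.6 to 32.6%) of 1262 domains of 1 to 2 kb and 59.5% (57.1 to 61.8%) of 1684 domains of 2 to 5 kb. It was 89.4% (85.5 to 92.3%) of 320 domains of 5 to 10 kb. Among the 191 domains of 10 kb or more, 189 held a summit, or 99.0% (96.3 to 99.7%). Per kb of domain, there were 0.163 summits (0.142 to 0.186) in the narrowest class and 0.213 (0.192 to 0.235) in domains of 1 to 2 kb. The 3 wider classes had 0.234, 0.253 and 0.244 summits per kb, with intervals that overlapped one another. Domains of at least 5 kb had 1.52 times the density of domains under 1 kb (1.32 to 1.76). In the widest class 139 of 191 domains had 3 or more summits.

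**Figure D1:**
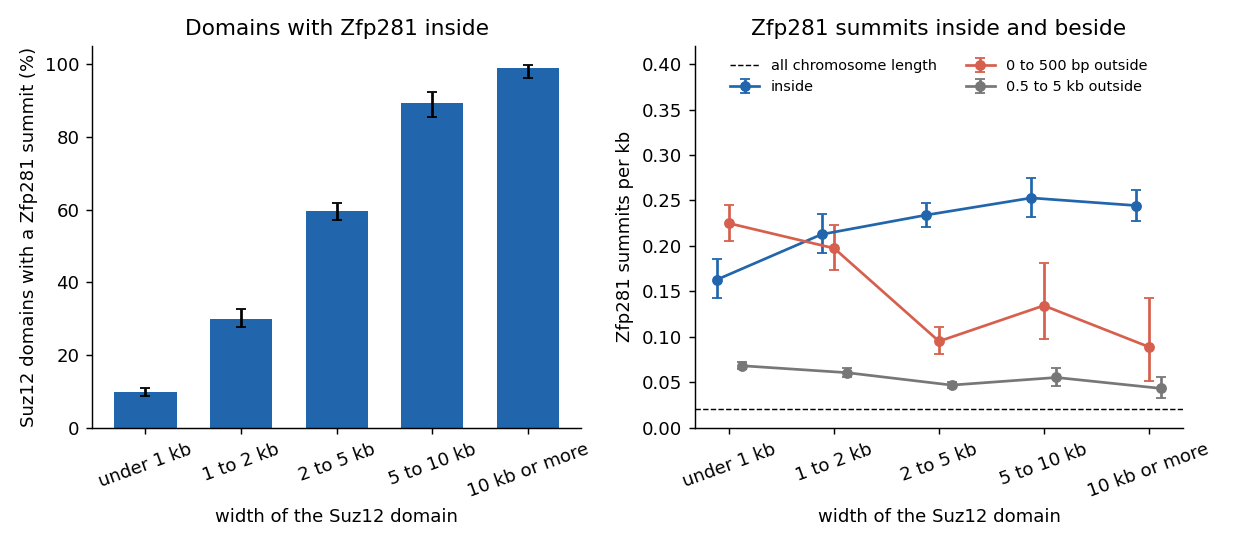
Left, percent of ESC Suz12 domains in each width class with at least 1 Zfp281 summit inside (bars, with 95% Wilson intervals), from 9.74% of domains under 1 kb to 99.0% of those of 10 kb or more. Right, Zfp281 summits per kb inside the domains (blue), in the 500 bp outside their edges (orange) and from 0.5 to 5 kb outside (grey), with 95% Poisson intervals; only in the narrowest class is the orange point above the blue one.

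In domains under 5 kb, the strength of Suz12 within a width class differed little between those with and without Zfp281. In domains of 5 to 10 kb the median was higher in those with Zfp281. In domains under 1 kb, the highest authors' fold enrichment of Suz12 had a median of 4.09 (quartiles 3.64 and 5.07) in those with a summit and 4.12 (3.62 and 4.82) in those without. In domains of 1 to 2 kb the medians were 5.69 (4.62 and 7.30) with a summit and 5.98 (4.69 and 7.51) without. In domains of 2 to 5 kb they were 9.02 (6.81 and 12.5) and 8.69 (6.26 and 11.5). In domains of 5 to 10 kb they were 16.7 (11.7 and 21.9) with a summit and 13.97 (10.54 and 18.1) without, the latter from 34 domains. In each of these classes the quartile ranges of the 2 groups overlapped, and a difference between the medians was not tested. The Suz12 fold rose from class to class, and widths were not matched within a class. The part of width in these differences was not tested.

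Within domains, Zfp281 lay away from the edges. In the 2195 domains of at least 2 kb, the core, more than 500 bp from either edge, had 0.266 summits per kb (0.255 to 0.277). The 500 bp just inside the edges had 0.143 (0.128 to 0.160), which is 0.537 times the core density (0.476 to 0.605). The 500 bp just outside had 0.100 (0.0875 to 0.114), or 0.377 times the core density (0.326 to 0.433). From 500 bp to 5 kb outside the density was 0.0477 (0.0446 to 0.0511). The intervals of these 4 zones did not overlap.

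In steps of 250 bp, the density was 0.126 summits per kb in the first step inside the edge, 0.160 in the second, 0.199 in the third and 0.248 in the fourth. It was between 0.289 and 0.323 from 1 kb to 2.5 kb inside. Further in, where only wide domains contribute, it was 0.221 (0.1504 to 0.314) at 3750 to 4000 bp. On the outer side the density was 0.104 in the first step and 0.0526 (0.0395 to 0.0686) at 1000 to 1250 bp. Beyond that distance no step up to 10 kb was above 0.0554, and none was below the overall 0.0204. The intervals of some of these steps included the overall value, as at 8000 to 8250 bp (0.0136 to 0.0343).

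**Figure D2:**
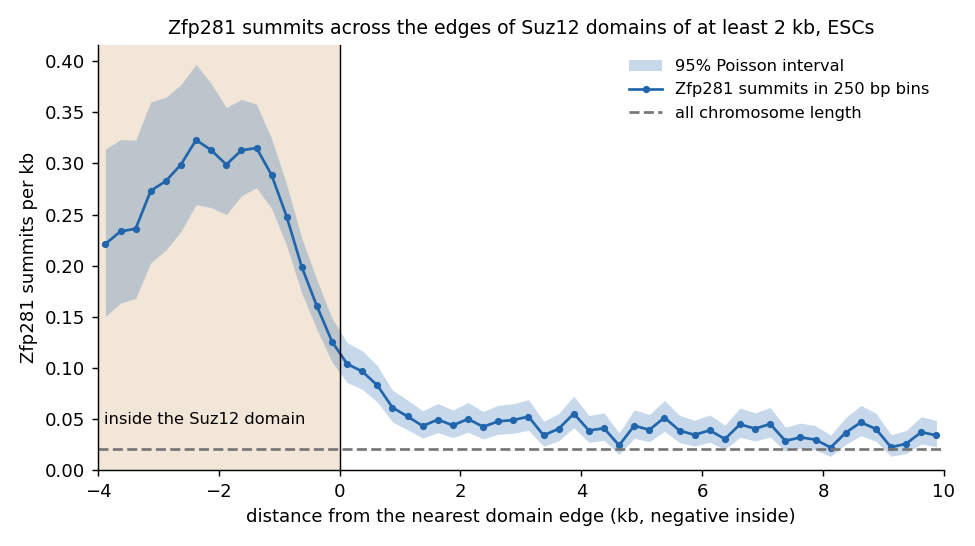
Zfp281 summits per kb (y axis) against distance from the nearest edge of ESC Suz12 domains of at least 2 kb (x axis, kb, negative and shaded inside), in 250 bp bins with 95% Poisson intervals. The density is between 0.289 and 0.323 from 1 to 2.5 kb inside, 0.104 just outside the edge, and between 0.0222 and 0.0554 beyond 1250 bp. These last values are above the dashed line of all chromosome length at 0.0204, but some of their intervals include it.

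The lean toward the centre was clearest in domains of 2 to 5 kb. There the 20% of the domain length nearest to the edges held 10.6% (9.01 to 12.5%) of 1215 summits and the central 20% of the length 29.2% (26.7 to 31.8%), where an even spread gives equal shares. In domains of 10 kb or more the outermost 20% of the length held 17.4% (14.9 to 20.1%) of 817 summits and the central 20% held 20.7% (18.05 to 23.6%). In domains under 1 kb, whose width is near that of a Zfp281 peak, the shares were 21.3% and 20.9% of 225 summits. Over all domains of at least 2 kb the median relative position was 0.296 (0.286 to 0.301), on a scale from 0 at an edge to 0.5 at the centre, where an even spread gives 0.25. With each Suz12 peak taken as a domain of its own, the density at the inner edge was 0.875 times that of the core and the density at the outer edge 0.740 times. That setting counts the ends of Suz12 peaks that face another Suz12 peak as edges. In domains of a single Suz12 peak of at least 2 kb the ratios were 0.495 (0.383 to 0.632) and 0.404 (0.305 to 0.528), so the edges were the less dense part also where no peaks were joined.

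Of the places compared, Zfp281 summits were densest in the short gaps between neighbouring Suz12 peaks. This comparison was chosen after the effect of joining peaks was seen. The 2427 gaps of at most 1 kb, with a median length of 431 bp, made up 8.15% of the domain length and held 552 summits, or 17.2% of those inside domains. Their density was 0.486 summits per kb (0.446 to 0.528), against 0.213 (0.203 to 0.224) in the Suz12 peaks of the same domains, a ratio of 2.28 (2.07 to 2.51). Suz12 peaks that stood alone had 0.198 summits per kb (0.186 to 0.210). A summit was found in 550 of the 2427 gaps, or 22.7% (21.0 to 24.4%). Within the gaps the summits were spread evenly, with 52.2% (48.0 to 56.3%) in the central 50% of the gap length.

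The gap density was 0.369 summits per kb (0.257 to 0.514) in the 492 gaps of up to 250 bp, 0.531 (0.458 to 0.612) at lengths of 250 to 500 bp and 0.489 (0.414 to 0.575) at 750 to 1000 bp. It was 0.395 (0.335 to 0.464) at 1 to 1.5 kb and 0.123 (0.0942 to 0.157) at 3 to 5 kb, below that of the Suz12 peaks. Of the gaps of 250 to 500 bp, 28.3% were covered over their whole length by 1 Zfp281 peak. The ends of Suz12 peaks differed in the same way. In domains of 2 or more peaks, the 250 bp inside an end that faced a gap had 0.295 summits per kb (0.265 to 0.327), and the 250 bp inside an end that faced out of the domain had 0.147 (0.124 to 0.174). The stretch of up to 250 bp beyond the end had 0.495 summits per kb (0.451 to 0.542) on the gap side and 0.113 (0.0931 to 0.136) on the outer side.

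**Figure D3:**
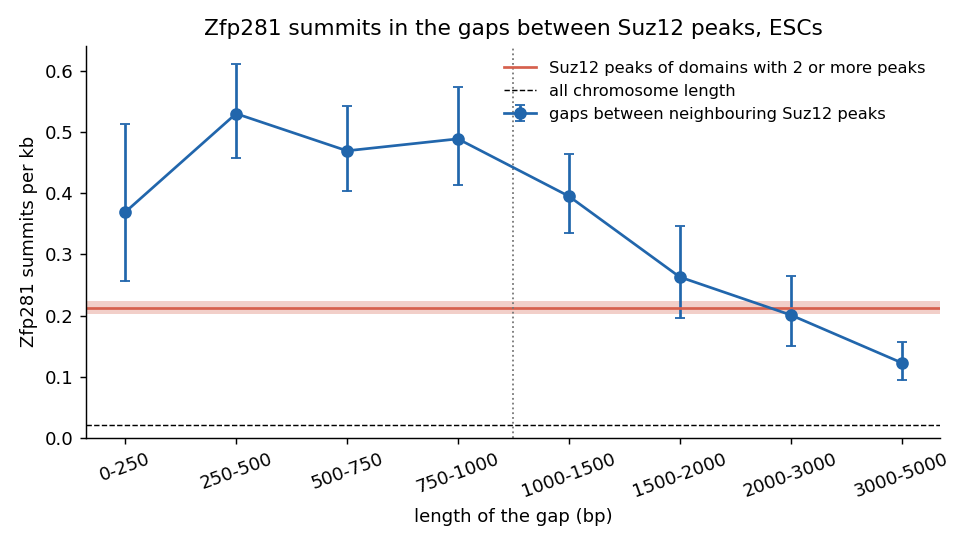
Zfp281 summits per kb (y axis) in the gaps between neighbouring ESC Suz12 peaks, by length of the gap (x axis, bp), with 95% Poisson intervals; gaps left of the dotted line, at most 1 kb, lie inside domains. Gaps of up to 250 bp have 0.369 summits per kb and those of 250 to 1000 bp 0.470 to 0.531, above the 0.213 of the Suz12 peaks of domains with 2 or more peaks (orange, band: 95% interval), and gaps of 3 to 5 kb have 0.123.

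Peaks in gaps had a somewhat higher fold than the other Zfp281 peaks inside domains. Zfp281 peaks with a summit in a gap had a median authors' fold of 7.23 (quartiles 4.51 and 12.2), and those with a summit in a Suz12 peak 6.21 (4.24 and 10.53). The expected level at the summit, as recovered from the peak statistics, was above the background at 57.5% (53.4 to 61.6%) of the gap peaks and at 63.6% (61.7 to 65.4%) of those in Suz12 peaks. Of the 481 peaks inside domains that were in the top 10% of the whole Zfp281 list (ordered by q-value), 100 lay in a gap, or 20.8% (17.4 to 24.6%).

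Around narrow Suz12 domains the order was the other way round. For domains under 1 kb, the 500 bp outside the edges had 0.225 Zfp281 summits per kb (0.206 to 0.245), more than the 0.163 (0.142 to 0.186) inside. For domains of 1 to 2 kb the densities were 0.197 (0.174 to 0.223) outside and 0.213 (0.192 to 0.235) inside, which overlapped. For domains of 2 to 5 kb they were 0.0951 (0.0809 to 0.111) outside and 0.234 (0.221 to 0.248) inside. Of the 986 summits within 500 bp outside any domain, 517 lay beside a domain under 1 kb. From 0.5 to 5 kb outside, the density was 0.0682 (0.0644 to 0.0721) for the narrowest domains and 0.0432 (0.0331 to 0.0555) for those of 10 kb or more.

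Zfp281 summits were also denser around Suz12 domains than over all chromosome length. Besides the 3201 inside, 986 summits lay within 500 bp outside a domain, at 8.42 times the overall density. Another 2696 lay 0.5 to 5 kb from the nearest domain, at 2.88 times the overall density (2.77 to 2.99). A further 12768 lay 5 to 50 kb away, at 1.72 times. The other 32615, or 62.4% of all, had no domain within 50 kb, and there the density was 0.0153 summits per kb, 0.750 times the overall one. These ratios, too, were not set beside those around start regions or CpG-rich regions without Suz12.

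Some of the domains without a summit inside had one nearby, and no share for other positions was computed to set beside these values. Of the 3677 such domains, 20.6% (19.4 to 22.0%) had a summit within 500 bp and 55.7% (54.1 to 57.3%) within 5 kb. Of the 718 that were at least 2 kb wide, 9.61% (7.66 to 11.99%) had a summit within 500 bp and 36.4% (32.9 to 39.9%) within 5 kb, and their nearest summit was a median of 10370 bp away. By overlap of the peaks in place of summits, 2841 domains met a Zfp281 peak, or 49.3% (48.1 to 50.6%), and 761 of these held no summit. Of the 4103 Zfp281 peaks that overlapped a domain, 61.8% (60.3 to 63.3%) lay wholly inside it and 33.6% (32.1 to 35.02%) crossed an edge. The remaining 191 spanned a whole domain, and 192 domains with a median width of 552.5 bp were spanned in this way.

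Zfp281 peaks in and beside domains were somewhat stronger and wider than others. Their median authors' fold was 6.24 in the core, 6.48 just inside the edges and 6.48 just outside them. It was 5.68 from 0.5 to 5 kb, 5.42 from 5 to 50 kb and 5.48 beyond 50 kb, where the quartiles were 4.18 and 8.35. The ratio of the median inside to that beyond 50 kb was 1.15 (1.12 to 1.20, from opposite ends of the intervals of both medians). The median width was 855 bp in the core and 572 bp beyond 50 kb. The share of peaks in the top 10% of the list was 15.0% (13.8 to 16.3%) inside domains and 9.46% (9.15 to 9.78%) beyond 50 kb. The share with an expected level above background was 62.5% (60.8 to 64.2%) inside and 55.0% (54.5 to 55.5%) beyond 50 kb, and its part in these differences was not tested.

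Read from the Zfp281 list, the share of peaks inside a domain was lowest in its weaker middle. It was 6.01% (5.39 to 6.68%) in the decile with the weakest q-values and 4.52% (3.98 to 5.11%) in the fourth decile. In the highest decile it was 9.20% (8.45 to 10.02%). The shares just outside an edge were 1.63% in the lowest and 2.97% in the highest decile.

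The density inside domains differed less between chromosomes than the density over the whole chromosome. Intervals are given only for X and for the autosomes together. It ranged from 0.195 summits per kb on chromosome 18 to 0.264 on chromosome 11, while the density over the whole chromosome ranged from 0.00455 on X to 0.0360 on chromosome 11. Chromosome X differed most. Outside domains it had 0.00418 summits per kb (0.00387 to 0.00451), against 0.0202 (0.02004 to 0.0204) on the autosomes. Inside domains it had 0.199 (0.152 to 0.255), an interval that includes the 0.230 of the autosomes. Of the 141 domains on X, 30.5% (23.5 to 38.5%) held a summit, and of 5616 autosomal domains 36.3% (35.02 to 37.5%). On all 20 chromosomes the inner edges of domains of at least 2 kb were less dense than the core (ratios of 0.324 to 0.735) and gaps of at most 1 kb were denser than the Suz12 peaks beside them (1.48 to 4.32). Domains of at least 5 kb were denser than those under 1 kb on 19 of the 20. That ratio ran from 0.993 on chromosome 16 to 2.50 on chromosome 9.

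**Figure D4:**
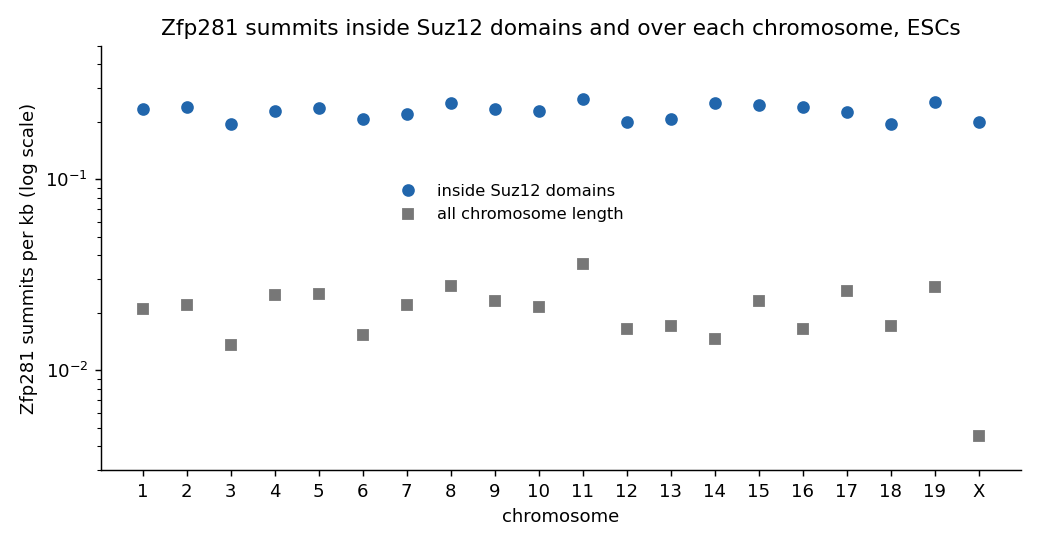
Zfp281 summits per kb (y axis, log scale) on each chromosome (x axis), inside ESC Suz12 domains (blue circles) and over the whole chromosome (grey squares). The circles lie between 0.195 and 0.264, while the squares lie between 0.00455 on X and 0.0360 on chromosome 11.

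Of the 8 domains with the most Zfp281 summits, 7 are given with their positions in the mm9 build. Gene names at these positions come from general knowledge of the mouse genome, as background. No gene annotation of mm9 was used here, no count rests on the names, and which start site a summit is nearest to was not analysed here. Names are given at only some of the domains and peaks below, so they do not describe the genes of all of them. All 45 gene symbols looked up lie on the stated chromosome in the RefSeq table of GRCm38.p6.

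The 3 widest domains were also the 3 with the most summits, and each lay at a cluster of Hox genes, which give cells their position along the body axis. The domain at the Hoxc cluster, on chromosome 15 from 102761873 to 102852766, consisted of 7 Suz12 peaks and held 25 Zfp281 summits with authors' folds of 2.81 to 23.9 (median 7.02). The domain at the Hoxb cluster, on chromosome 11 from 96130000 to 96218983, held 21 summits with folds of 3.51 to 38.3 (median 8.17). The domain at the Hoxa cluster, on chromosome 6 from 52146423 to 52219221, held 16 with folds of 2.51 to 21.4 (median 5.71). At the Hoxd cluster on chromosome 2, a domain from 74492217 to 74542841 and another from 74556944 to 74592819 held 9 summits each.

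Summits were spread along these domains. Their density was 0.275 per kb at Hoxc, 0.236 at Hoxb, 0.220 at Hoxa, and 0.178 and 0.251 in the domains at Hoxd, against 0.244 in all domains of 10 kb or more. Neighbouring summits were a median of 2.997 kb apart at Hoxc, 3.34 kb at Hoxb and 3.13 kb at Hoxa. The longest stretch between neighbouring summits was 14.6 kb at Hoxc, 15.0 kb at Hoxb and 10.8 kb at Hoxa. Of the summits, 6 of 25 at Hoxc, 5 of 21 at Hoxb and 2 of 16 at Hoxa belonged to the top 10% of the Zfp281 list. In the Hoxd domains none of the 9 summits of the first and 2 of the 9 of the second did.

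Another 2 of these domains held 10 summits each. One spanned 47.6 kb at Nr2f2, a nuclear receptor gene, on chromosome 7 from 77468926 to 77516558. The other spanned 25.1 kb at Neurod2, a neuronal transcription factor gene, on chromosome 11 from 98179335 to 98204429. It had the highest density of the 7, at 0.398 per kb, and was the most broken up, with 8 Suz12 peaks, and 3 of its 10 summits lay in gaps.

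**Figure D5:**
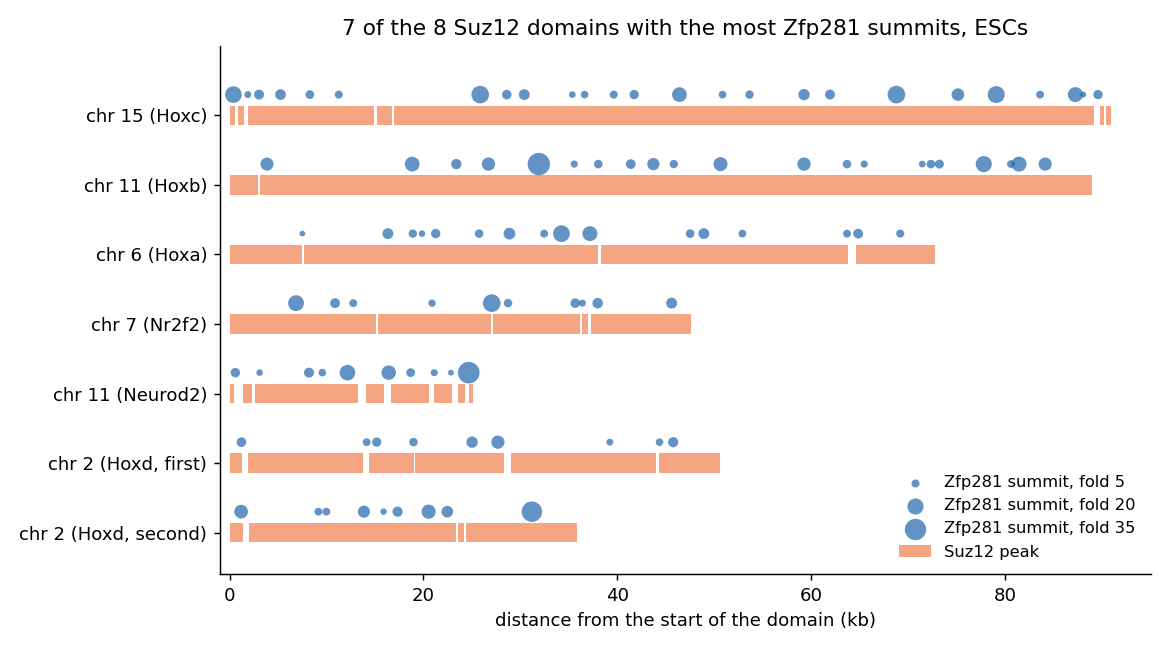
Suz12 peaks (orange bars) and Zfp281 summits (blue circles, area in proportion to the authors' fold) in 7 of the 8 ESC Suz12 domains with the most Zfp281 summits, against distance from the start of the domain (x axis, kb). Gene names are background and not from an annotation of the build; summits run along most of each domain, 25 of them at Hoxc and 10 in the most broken up domain, at Neurod2.

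Wide domains without any Zfp281 summit were few, and the number expected from their length alone was not computed. Only 36 of the 511 domains of at least 5 kb had none, 34 of them 5 to 10 kb wide. Of the 8 widest of these, 7 are described. One lay on chromosome 4 from 21606914 to 21619118, 12.2 kb at Prdm13, a gene of spinal cord and retinal neurons, with a 23.9-fold Suz12 enrichment and a Zfp281 summit 759 bp outside. The next of them lay on chromosome 19 from 16943935 to 16952961, 9.03 kb at Foxb2, a forkhead gene, and had its nearest Zfp281 summit 54732 bp away. A domain of 8.31 kb at Lhx6, a LIM homeobox gene of interneurons, on chromosome 2 from 35945751 to 35954055, consisted of 4 Suz12 peaks and had a summit 1113 bp outside. The other 4, for which no gene is named, were 8.13 to 8.93 kb wide, with the nearest summit 4537 to 39748 bp away.

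The strongest Zfp281 peaks of the core are given by position. The first, on chromosome 1 from 157587636 to 157590739 at Lhx4, a LIM homeobox gene of the pituitary and motor neurons, was 61.2-fold enriched, ranked 8 in the Zfp281 list and had its summit in the gap of a 13.7 kb domain with a 38.1-fold Suz12 enrichment. The second, on chromosome 2 from 109512879 to 109515562 at Bdnf, a neurotrophin gene, was 47.6-fold enriched, and its summit lay in a Suz12 peak. Among the 5 strongest peaks of the core, 4 had the summit in a gap, including one on chromosome 5 from 28491455 to 28492721 at En2, a homeobox gene of the midbrain and hindbrain (44.1-fold). Of the 5 strongest peaks with the summit just inside an edge, 2 had it in a gap. Over all 481 top 10% peaks inside domains the share in a gap was 20.8%, against 17.2% of all summits inside domains.

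Some of the strongest Zfp281 peaks of the whole list had their summits just outside domains. The first with its summit just outside an edge, on chromosome 11 from 69179961 to 69183013, was 66.6-fold enriched and ranked 11. Its summit lay 320 bp from a domain of 2456 bp, which the peak itself overlapped. Each of the 5 strongest peaks with a summit just outside an edge overlapped the domain in this way. The first with its summit 0.5 to 5 kb outside, on chromosome 3 from 80839755 to 80841736, was 64.8-fold enriched and ranked 19. Its summit lay 856 bp from a 496 bp domain with a 2.54-fold Suz12 enrichment, and the end of the peak reached into that domain. For all 5 strongest peaks of that zone the domain nearest to the summit was under 2 kb wide, and for 4 of them under 1 kb. Of all 2696 summits of that zone, 68.5% lay beside domains under 2 kb and 46.4% beside domains under 1 kb.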

How the data were processed

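ESC Zfp281 and ESC Suz12 peak lists, 1 library each, were compared. Per the submitters' processing notes, the build is mm9 and the tools named are FastQC 0.10.1, Bowtie2 2.3.4 and SAMtools 0.1.19; the peak caller, its control, its threshold and the treatment of duplicate reads are not given in the sources used here. The deposited lists have 10 columns. The authors' fold enrichment, the deposited -log10 p-value and -log10 q-value, and the deposited score (10 times the -log10 q-value without decimals in every peak) were used only within a list. The lowest -log10 q-value was 1.31 for Zfp281 and 1.33 for Suz12. Chromosomes 1 to 19 and X were used, which left out 30 Zfp281 peaks.

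Densities are summits over base pairs, each base assigned to its nearest domain edge, and the chromosome length is the span from the lowest to the highest position of either list. Tags and expected levels were solved from fold and p-value for 99.8% of Zfp281 and 100% of Suz12 peaks (whole tags giving the -log10 p within 0.002; in the Suz12 list each tag counted 0.590). An expected level counted as above background when it exceeded the lowest of the list by over 1%. Ratios of densities have exact conditional intervals. Python 3.11.15, numpy 2.4.6, pandas 2.3.3 and scipy 1.17.1 were used, and the scripts were tested on simulated data. The rule names the 8 domains with the most summits, the 8 widest without one (1 domain of each kind is not reported here), and peaks from the 5 of highest score in each zone, leaving out most of them for length. The members and this rule were chosen with earlier results of these data known. No genome or annotation of mm9 was used here, so no sequences are printed, and start sites, gene lists and motifs were not analysed.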

Additional observations from a re-analysis of the deposited data

How the results depend on the processing

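No paired analysis was possible because neither ESC antibody had a second library. The planned results on genes with both factors, summits at start sites and the G-rich element were not run, since no genome or annotation of mm9 was used here. The comparison of gaps, the restriction to domains of 1 Suz12 peak and the removal of chromosomes 1 and 8 were chosen after seeing the data. No ratio crossed 1 and the median relative position stayed above 0.25 under the alternatives run; all values not given here stayed within the main interval. With each Suz12 peak as a domain, 24.4% of domains held a summit and 5.07% of summits lay inside, the density inside was 10.2 times the overall one, the inner and outer edge had 0.875 and 0.740 times the core density, and the median relative position was 0.265. With joining up to 3 kb, the shares were 41.0% and 6.60%, and the ratio of gap to peak density was 1.96. With the higher-scoring 50% of Zfp281 peaks, the shares were 25.3% and 7.26%, the density inside was 13.4 times and that from 0.5 to 5 kb outside 2.99975 times the overall one, and the gap ratio was 2.56. With the higher-scoring 50% of Suz12 peaks, the shares were 46.9% and 4.59% and the gap ratio 2.66. Peak centres gave an inner edge ratio of 0.457 and a relative position of 0.303. Edge zones of 1000 bp gave ratios of 0.651 and 0.308 to the core and 2.53 for the flank, and zones of 250 bp gave 3.20 for the flank. In domains of at least 4 kb the relative position was 0.272. Shares of domains with a summit depend on how many weak peaks a list holds, and the Zfp281 list rests on a median of 25 tags at the summit.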

Other observations

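The share of Zfp281 peaks inside Suz12 domains ranged more widely by the width of the peak than by its score. In the widest decile of Zfp281 peaks, with a median width of 1766 bp, 15.3% (14.4 to 16.3%) had the summit inside a Suz12 domain, and 49.6% had no domain within 50 kb. In the narrowest decile, with a median width of 310 bp, 3.48% (3.02 to 4.01%) lay inside and 66.7% had no domain within 50 kb. By -log10 q-value the highest decile had 9.20% inside. These shares describe 1 library each, and the difference between the splits was not tested.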
